A study of Rattus norvegicus with 10 samples.

Results

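The genes described here are 10 receptors, signalling factors and response genes of type 2 immunity: Il4r, Il13ra1, Il13ra2, Il5ra, Tslp, Stat6, Gata3, Arg1, Retnla and Postn. They were taken by symbol from a table of 22250 rat genes, and all 10 were found, of which 8 passed the filter on low counts. Messenger RNA was sequenced from rat lung in 10 libraries, 5 named MOD and 5 named XBS. The study's design text describes neutrophilic asthma, an asthma form with many neutrophils in the airways, modelled in rats by lipopolysaccharide (endotoxin) together with ovalbumin, the usual experimental allergen. A formula abbreviated SP was given, and the nuclear receptor NR1D1 was studied further. What MOD and XBS stand for, and which of them received SP, is not in the labels, so values are compared as XBS against MOD. Not given in the sources used here are strain, age, sex, dose and time. No label says that the libraries are from different animals, and p-values may thus reflect technical spread alone.

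Type 2 immunity is driven by the cytokines IL-4, IL-5 and IL-13, made mainly by T helper 2 cells and innate lymphoid cells, and is set off in the airway by epithelial alarmins such as TSLP and IL-33. IL-4 signals through the IL-4 receptor alpha chain paired with either the common gamma chain or IL-13 receptor alpha 1, and IL-13 uses the second of these pairs; both activate the transcription factor STAT6. This arm underlies eosinophilic allergic asthma, with eosinophils, mucus and matrix deposition, and is usually set apart from the neutrophilic form.

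Total counts ran from 11998979 to 15518929 per library, and 3 counts corresponded to 0.190 to 0.247 CPM, the count scaled to a common library total after TMM adjustment. The tissue label was checked with alveolar epithelial markers such as the surfactant protein gene Sftpc, which summed to 9722 to 19879 CPM; the labels also name a human bronchial cell line, but the table holds rat genes. XBS 2 and XBS 3 stood apart, with 2562 and 2785 CPM of summed club and ciliated airway cell markers against 7975 to 12392 in the other 8 libraries. Neutrophil markers summed to 300 to 474 CPM in MOD and 323 to 867 in XBS, the highest value again in XBS 2 (exact two-sided permutation p = 0.143, adjusted p = 0.302 over the 10 marker lists). Of the neutrophil genes Ncf1, an oxidase subunit, was 1.36-fold and Csf3r, the G-CSF receptor, 1.34-fold higher in XBS (adjusted p = 0.382 for each).

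None of the type 2 genes passed the test, 0 of 8 at an adjusted p of 0.05 by edgeR. Of all 14320 tested genes 0.0768% passed (0.0489% lower and 0.0279% higher in XBS). DESeq2 and limma voom also gave 0 of 8, where 348 and 67 of all 14320 genes passed. Il4r was 1.30-fold lower in XBS, while Gata3 was 1.5-fold and Arg1 1.60-fold higher, and these were the 3 genes with an unadjusted p under 0.05 by edgeR, a count that DESeq2 and limma voom gave too. The count changed with the libraries left out. It was 1 without MOD 4 and 2 without MOD 2, MOD 3, XBS 1, XBS 2 or XBS 3. It was 4 without MOD 5, and 1 without XBS 2 and XBS 3 together. Over all genes tested in each run the number at that p changed too, from 1888 to 1234 without MOD 4. It was 1291 without MOD 2, 1375 without MOD 3, 1294 without XBS 1 and 1545 without XBS 2. Without XBS 3 it was 1851, without MOD 5 1882, and without XBS 2 and XBS 3 together 1613. The 3 of 8 by edgeR compare with 13.2% of all tested genes, 5.78% lower and 7.4% higher in XBS. DESeq2 put 2041 and limma voom 2533 of all 14320 genes at an unadjusted p under 0.05. The fold change was negative for 6 of the 8 genes and positive for 2, with a median log2 fold change of -0.26 against 0.01 over all tested genes, of which 7425 had a positive fold change. For 0 of the 8 genes did the MOD and XBS ranges fail to overlap, against 2.74% of all tested genes.

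**Figure D1:**
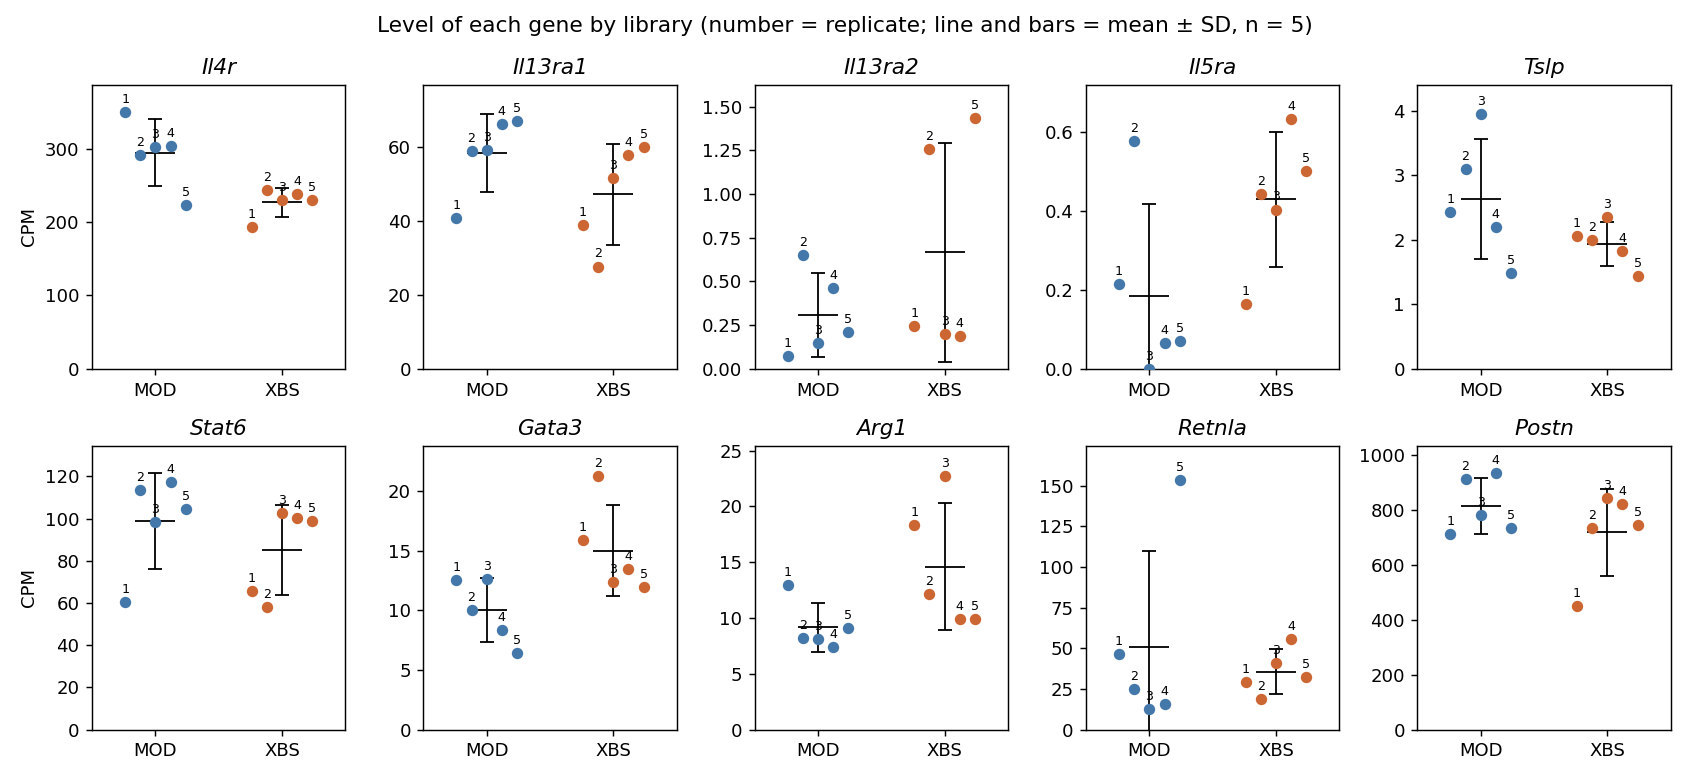
CPM of each of the 10 genes in every library, MOD in blue and XBS in orange, with the replicate number above each point and the mean ± SD (n = 5) in black; each axis starts at 0, and a bar that would reach below 0 stops there. Il4r is lower in XBS apart from MOD 5, Gata3 and Arg1 are higher with overlapping ranges, and the 1 high Retnla value (154 CPM) is MOD 5.

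Levels between genes were compared per gene length, as deposited FPKM (counts divided by gene length and library total). Postn was the most abundant of the 10 at 237 ± 40.1 FPKM (SD over all 10 libraries), followed by Retnla at 85.2 ± 79.8, Il4r at 73.1 ± 13.5, Il13ra1 at 41.2 ± 9.89 and Stat6 at 25.6 ± 5.93. Arg1, Tslp and Gata3 formed a low tier at 7.92 ± 3.26, 5.63 ± 1.85 and 4.71 ± 1.59 FPKM. Il13ra2 and Il5ra were at 0.187 ± 0.189 and 0.0618 ± 0.0467 FPKM, with 3 counts or fewer in several libraries. The steps from Il4r to Il13ra1, from Il13ra1 to Stat6, from Stat6 to Arg1 and from Gata3 to Il13ra2 were present in all 10 libraries. Postn exceeded Retnla in 9 of 10 libraries, the exception being MOD 5 (Retnla at 298 and Postn at 222 FPKM). Retnla and Il4r could not be ordered, since Retnla was the higher in 5 of 10 libraries, nor could Arg1 and Tslp (7 of 10) or Tslp and Gata3 (6 of 10). Tslp exceeded Gata3 in 5 of 5 MOD libraries and in 1 of 5 XBS libraries. These levels rest on the deposited gene lengths, which were short for Tslp (405 bases), Retnla (503 bases) and Il13ra1 (1281 bases) beside 3561 bases for Il4r.

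**Figure D2:**
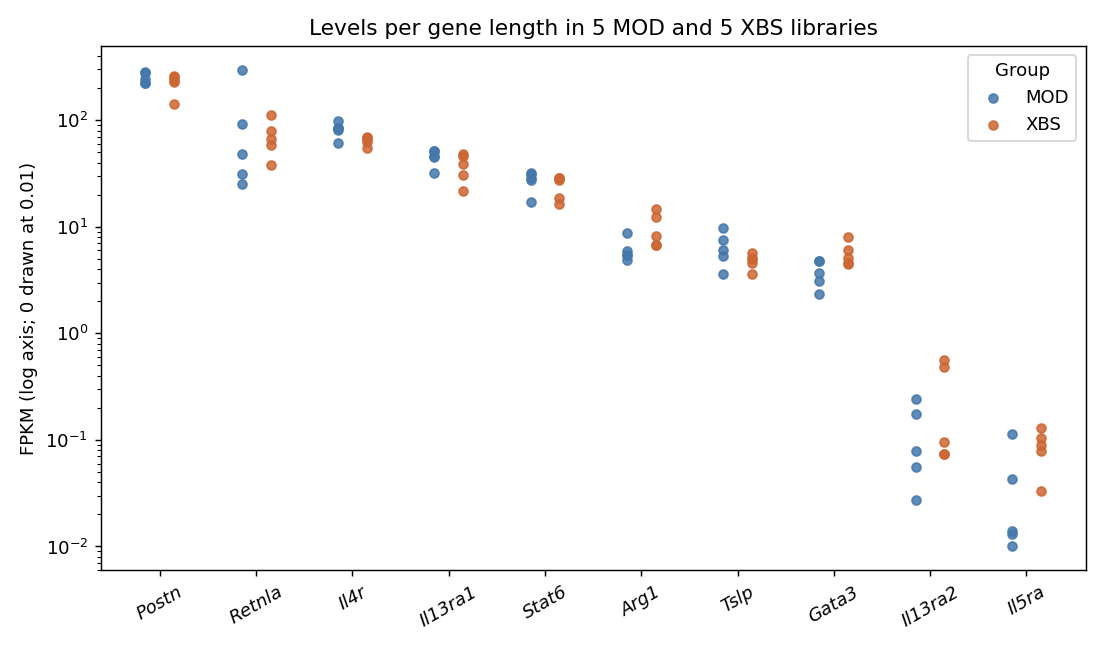
FPKM of the 10 genes on a log axis, ordered by mean level, with 5 MOD libraries in blue and 5 XBS libraries in orange; a value of 0 is drawn at 0.01. Postn has the highest mean and lies above Retnla in 9 of 10 libraries (not in MOD 5), with Il4r above Il13ra1 above Stat6 in every library, and Il13ra2 and Il5ra stay at or under 0.561 FPKM.

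Among the ligands, Tslp encodes thymic stromal lymphopoietin, an epithelial alarmin that primes dendritic cells and innate lymphoid cells for type 2 responses. Tslp (ENSRNOG00000058856; chromosome 18, 25613831 to 25617361 by the deposited coordinates, of unstated build) stood at 2.44, 3.10, 3.95, 2.19 and 1.49 CPM in MOD 1 to 5 and at 2.05, 1.999, 2.36, 1.83 and 1.43 CPM in XBS 1 to 5. The highest values were MOD 3, MOD 2 and MOD 1, and all XBS libraries but XBS 5 lay within the MOD range. Its means of 2.63 ± 0.935 and 1.94 ± 0.338 CPM (SD, n = 5) gave a log2 fold change of -0.44 ± 0.28 (SE; 95% interval -1.08 to 0.19; adjusted p = 0.495), and -0.25 without MOD 3.

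The other cytokines and alarmins on the pathway list were mostly near 0. Of 10 listed genes 3 were tested, 0 passed, and 2 (Il3 and Il9) had 0 counts in every library. The type 2 cytokine genes themselves, named here after their values were seen, gave 9 counts in MOD and 3 in XBS for Il4, 0 and 5 for Il5, and 1 and 0 for Il13, summed over 5 libraries each. A difference between the groups in these cytokines was not detectable at this depth. Il33, an alarmin stored in lung epithelial and stromal nuclei, was abundant by contrast, with 371 ± 74.5 CPM in MOD and 361 ± 54.4 in XBS (SD, n = 5; adjusted p = 0.924). Csf2, which encodes the growth factor GM-CSF, was 1.63-fold higher in XBS (2.89 ± 0.932 against 4.72 ± 1.79 CPM, adjusted p = 0.366). Areg, a growth factor of tissue repair, was 1.78-fold lower (2.49 ± 1.00 against 1.38 ± 0.655 CPM, adjusted p = 0.396).

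Il4r encodes the IL-4 receptor alpha chain, which is shared by both receptor pairs. Il4r (ENSRNOG00000015441; chromosome 1, 196942364 to 196967220, plus strand) stood at 350.2, 291, 302, 304 and 223 CPM in MOD 1 to 5, and in XBS 1 to 5 at 194, 244, 229.6, 238 and 230.1 CPM. The first 4 MOD libraries lay above every XBS library, and MOD 5 lay within the XBS range. The means were 294 ± 45.6 and 227 ± 19.6 CPM (SD, n = 5), a log2 fold change of -0.37 ± 0.11 (SE; 95% interval -0.63 to -0.12), with unadjusted p = 0.00626 and adjusted p = 0.214. The adjusted p ran from 0.0600 by DESeq2 to 0.475 over all alternatives, and the difference was as large without XBS 2 and XBS 3, at -0.42 (adjusted p = 0.355). Endothelial markers were lower in XBS too, with summed levels of 2089 to 3119 CPM in MOD and 1431 to 2214 CPM in XBS (exact two-sided permutation p = 0.0397, adjusted p = 0.278 over 10 lists). Their 3 tested members had negative fold changes, among them Calcrl, a peptide receptor chain (1.31-fold lower, adjusted p = 0.268), and Plvap, a fenestral diaphragm protein (1.35-fold lower, adjusted p = 0.297). The tight junction gene Cldn5 was listed at 0 in every library. Whether Cldn5 was not expressed or its reads were not counted cannot be told from these values. XBS 1, lowest for Il4r, also had the lowest endothelial sum (1431 CPM). MOD 1, highest for Il4r, had a sum of 2273 CPM, above MOD 5 alone among the MOD libraries. Negative fold changes were not particular to the endothelial list. All 6 tested club and ciliated cell markers and all 6 tested alveolar epithelial markers had them too. The part of endothelial or epithelial cells in the Il4r difference was not tested. In bulk tissue fewer cells of a type and less RNA per cell cannot be told apart.

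The promoter windows of Il4r and Retnla are shown because they were the 2 of 9 windows that held AGGTCA, the core bound by NR1D1, the receptor that the study followed up. The windows run from 250 bases before to 50 bases after the transcription start, from RefSeq on GRCr8; 8 of the 10 genes matched by symbol, and Tslp had 2 starts. Capitals mark AGGTCA or its complement TGACCT.
Il4r, chr1:189545525-189545824, plus strand: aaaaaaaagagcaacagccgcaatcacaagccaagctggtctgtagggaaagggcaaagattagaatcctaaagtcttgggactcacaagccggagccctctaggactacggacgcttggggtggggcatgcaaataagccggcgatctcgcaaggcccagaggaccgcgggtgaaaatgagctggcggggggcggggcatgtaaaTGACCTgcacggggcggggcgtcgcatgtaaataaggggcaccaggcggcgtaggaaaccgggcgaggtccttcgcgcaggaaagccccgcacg
Retnla, chr11:65426137-65426436, minus strand: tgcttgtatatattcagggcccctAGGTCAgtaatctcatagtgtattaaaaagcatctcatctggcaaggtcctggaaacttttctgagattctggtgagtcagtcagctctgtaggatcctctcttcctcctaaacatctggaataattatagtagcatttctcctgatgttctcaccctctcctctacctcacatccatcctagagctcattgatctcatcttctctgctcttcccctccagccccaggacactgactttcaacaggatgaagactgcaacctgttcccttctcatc
Read 5′ to 3′, the match begins at position -44 relative to the start in Il4r, on the opposite strand, and at -226 in Retnla, on the gene's strand. AGGTCA on either strand occurred in 16.2% of all 33469 promoter windows of this length. TTC and GAA separated by 4 bases, the STAT6 motif, was found in 0 of the 9 windows and 7.28% of all, and with 3 bases between them, the general STAT motif, in 0 of 9 and 8.87% of all. The clock E-box CACGTG was found in 0 of 9 and 6.42% of all, and the GATA motif AGATAA in 1 of 9 (Postn) and 11.6% of all. No 2 of these motifs overlapped within the 9 windows, both strands were searched throughout, and a match is only an occurrence of these letters.

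Il13ra1 encodes the chain that completes the IL-13 signalling receptor. Il13ra1 (ENSRNOG00000013170; chromosome X, 122724129 to 122781479) measured 40.9, 59.0, 59.2, 66.3 and 67.1 CPM in MOD 1 to 5 and 38.9, 27.7, 51.7, 57.9 and 60.0 CPM in XBS 1 to 5. The low libraries were XBS 2, XBS 1 and MOD 1, and the ranges overlapped. The mean went from 58.5 ± 10.6 to 47.2 ± 13.7 CPM (SD, n = 5), a log2 fold change of -0.31 ± 0.21 (SE; 95% interval -0.78 to 0.17; adjusted p = 0.525), which was -0.17 without XBS 2 and -0.16 without XBS 2 and XBS 3.

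Il13ra2 encodes a decoy receptor that binds IL-13 without activating STAT6, and Il5ra the IL-5 receptor chain of eosinophils and B cells; neither passed the filter. Il13ra2 (ENSRNOG00000032973; chromosome X, 118443823 to 118513061) had 1, 9, 2, 7 and 3 counts in MOD 1 to 5 and 3, 17, 3, 3 and 20 counts in XBS 1 to 5. XBS 2 and XBS 5 thus stood above every MOD library, and the other 3 XBS libraries were at 3 counts each. Il5ra (ENSRNOG00000005954; chromosome 4, 138795327 to 138830117) had 3, 8, 0, 1 and 1 counts in MOD 1 to 5 and 2, 6, 6, 10 and 7 counts in XBS 1 to 5, and the 0 in MOD 3 allows up to 0.219 CPM, counting error only. XBS 4 lay above the highest MOD library, MOD 2, and the other XBS libraries within the MOD range. Fitted with no filter, Il13ra2 gave adjusted p = 0.593 and Il5ra 0.556 by edgeR. Eosinophil markers summed to 10.4 to 18.5 CPM in MOD and 11.8 to 18.7 in XBS, with 73.1% of the sum from Siglec5 (exact two-sided permutation p = 0.659), and without Siglec5 to 1.94 to 6.51 CPM in MOD and 1.89 to 5.63 in XBS. Siglec5 and the chemokine receptor gene Ccr3 were the 2 tested members, with adjusted p = 0.636 and 0.707. The eosinophil granule genes, named after their values were seen, were near the floor: Epx gave 39 counts over each group of 5 libraries, Prg2 18 in MOD and 16 in XBS, and Prg3 0 in every library.

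The other receptor chains on the pathway list gave 8 of 12 positive fold changes (median 0.10), with 3 higher and 0 lower in XBS at an unadjusted p under 0.05. Of all tested genes 7.4% were higher and 5.78% lower at that p by edgeR. By edgeR 0 of the 12 passed. Csf2ra, the GM-CSF receptor chain, was 1.32-fold higher (51.0 ± 7.51 against 67.5 ± 13.0 CPM, adjusted p = 0.287). Il17ra, an IL-17 receptor chain, was 1.31-fold higher (244 ± 29.6 against 320.1 ± 77.3 CPM, adjusted p = 0.342). Il2rg, the common gamma chain that pairs with IL-4 receptor alpha, was 1.18-fold higher (64.8 ± 4.03 against 76.2 ± 9.22 CPM, adjusted p = 0.313). As the Il2rg and Il4r means differed in opposite directions, the ratio of their FPKM was computed in each library, a choice made after seeing the data. Il4r over Il2rg was 4.62, 3.59, 4.10, 4.03 and 2.61 in MOD 1 to 5 and 2.55, 2.41, 2.27, 2.80 and 2.36 in XBS 1 to 5. Its mean was 3.79 ± 0.753 in MOD and 2.48 ± 0.203 in XBS (SD, n = 5), and the groups overlapped only through MOD 5 and XBS 4. Il4r over Il13ra1, the chains of the IL-13 receptor, averaged 1.91 ± 0.703 and 1.88 ± 0.736 FPKM per FPKM, with MOD 1 (3.08) and XBS 2 (3.17) far above the rest.

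Stat6 is the transcription factor that carries the IL-4 and IL-13 signal to the nucleus. Stat6 (ENSRNOG00000025023; chromosome 7, 70946228 to 70964484) measured 60.5, 114, 98.2, 117 and 104 CPM in MOD 1 to 5 and 65.8, 58.2, 103, 100.45 and 99.0 CPM in XBS 1 to 5. MOD 1, XBS 1 and XBS 2 lay far below the other 7 libraries, the same 3 that were lowest for Il13ra1. The group means were 98.8 ± 22.7 and 85.2 ± 21.4 CPM (SD, n = 5), with a log2 fold change of -0.21 ± 0.21 (SE; 95% interval -0.69 to 0.26; adjusted p = 0.668). It was -0.35 without MOD 1, -0.13 without XBS 1 and -0.10 without XBS 2. MOD 1, XBS 1 and XBS 2 were also the lowest libraries for Jak1 (271, 301 and 289 CPM) and Stat3 (244, 239 and 229 CPM). The same held for Stat5b (54.0, 56.3 and 53.7 CPM) but not for Tyk2 (75.8, 89.8 and 93.1 CPM), Jak2 or Stat5a. For the kinase gene Jak3 (40.4, 48.3 and 42.9 CPM), XBS 1 and XBS 2 were the highest libraries. Jak1, Jak2, Stat3, Stat5a and Stat5b are named after their values were seen, from a list of 20 genes. The low position of these libraries was thus not particular to Stat6 and Il13ra1.

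Gata3 encodes the master transcription factor of T helper 2 cells and innate lymphoid cells, also used by some epithelia. Gata3 (ENSRNOG00000019336; chromosome 17, 72429618 to 72450681) stood at 12.5, 10.02, 12.7, 8.38 and 6.44 CPM in MOD 1 to 5, and in XBS 1 to 5 at 15.9, 21.3, 12.4, 13.5 and 11.98 CPM. XBS 2, XBS 1 and XBS 4 lay above every MOD library, and XBS 3 and XBS 5 within the MOD range. It averaged 10.01 ± 2.68 and 15.0 ± 3.84 CPM (SD, n = 5), a log2 fold change of 0.59 ± 0.22 (SE; 95% interval 0.08 to 1.09) with unadjusted p = 0.0210 and adjusted p = 0.306. Without XBS 2 and XBS 3 the log2 fold change was 0.46 (adjusted p = 0.478). T cell markers, 7 of 7 tested, summed to 118 to 165 CPM in MOD and 144 to 194 in XBS (exact two-sided permutation p = 0.111, adjusted p = 0.302), 6 of them with positive fold changes, such as the T cell kinase gene Lck (1.20-fold, adjusted p = 0.435) and Cd3e, a T cell receptor subunit (1.18-fold, adjusted p = 0.659). Cd4, which rat macrophages express too, made up 54.9% of this sum, and it was low in XBS 2 (67.1 CPM) and high in MOD 5 (99.9 CPM). Without Cd4, a sum chosen after seeing the data, the T cell markers ran from 50.2 to 88.2 CPM in MOD and from 66.7 to 97.6 CPM in XBS (exact two-sided permutation p = 0.294). XBS 2, highest of the 10 libraries for Gata3, was also highest for this sum (97.6 CPM), and MOD 5, lowest for Gata3, stood at 64.7 CPM, above MOD 4 alone. XBS 1, next after XBS 2 for Gata3 (15.9 CPM), had the lowest such sum in XBS (66.7 CPM). Thymus markers summed to 24.8 to 37.4 CPM in MOD and 26.1 to 33.8 in XBS, where Dntt and Themis, of developing T cells, did not pass (adjusted p = 0.516 and 0.619). Of this sum 83.9% came from Cd1d1. Without Cd1d1 it ran from 3.59 to 7.10 CPM in MOD and from 3.57 to 5.77 CPM in XBS. The part of T cells in the Gata3 difference was not tested.

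JAK kinases, other STAT factors and their feedback inhibitors gave 12 of 20 positive fold changes (median 0.08), and 0 passed by edgeR. At an unadjusted p under 0.05, 6 of the 20 were higher and 1 lower in XBS, against 7.4% and 5.78% of all tested genes. Socs3, a cytokine-induced inhibitor of JAK signalling, was the lower one, at 56.9 ± 11.6 CPM in MOD and 40.7 ± 6.05 in XBS (SD, n = 5; 1.40-fold, adjusted p = 0.228). Jak3, the kinase bound to the common gamma chain, was 1.33-fold higher (32.0 ± 6.30 against 42.4 ± 4.21 CPM, adjusted p = 0.249), and Tyk2, a kinase of the IL-13 receptor, 1.21-fold higher (adjusted p = 0.309). Tbx21, named after its values were seen because it encodes T-bet, the T helper 1 counterpart of GATA3, was 1.90-fold higher in XBS (9.42 ± 3.04 against 18.0 ± 9.46 CPM, adjusted p = 0.342). It was high in XBS 1, XBS 2 and XBS 3 (28.7, 25.2 and 19.4 CPM) and within the MOD range in XBS 4 and XBS 5 (9.55 and 7.10 CPM).

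**Figure D3:**
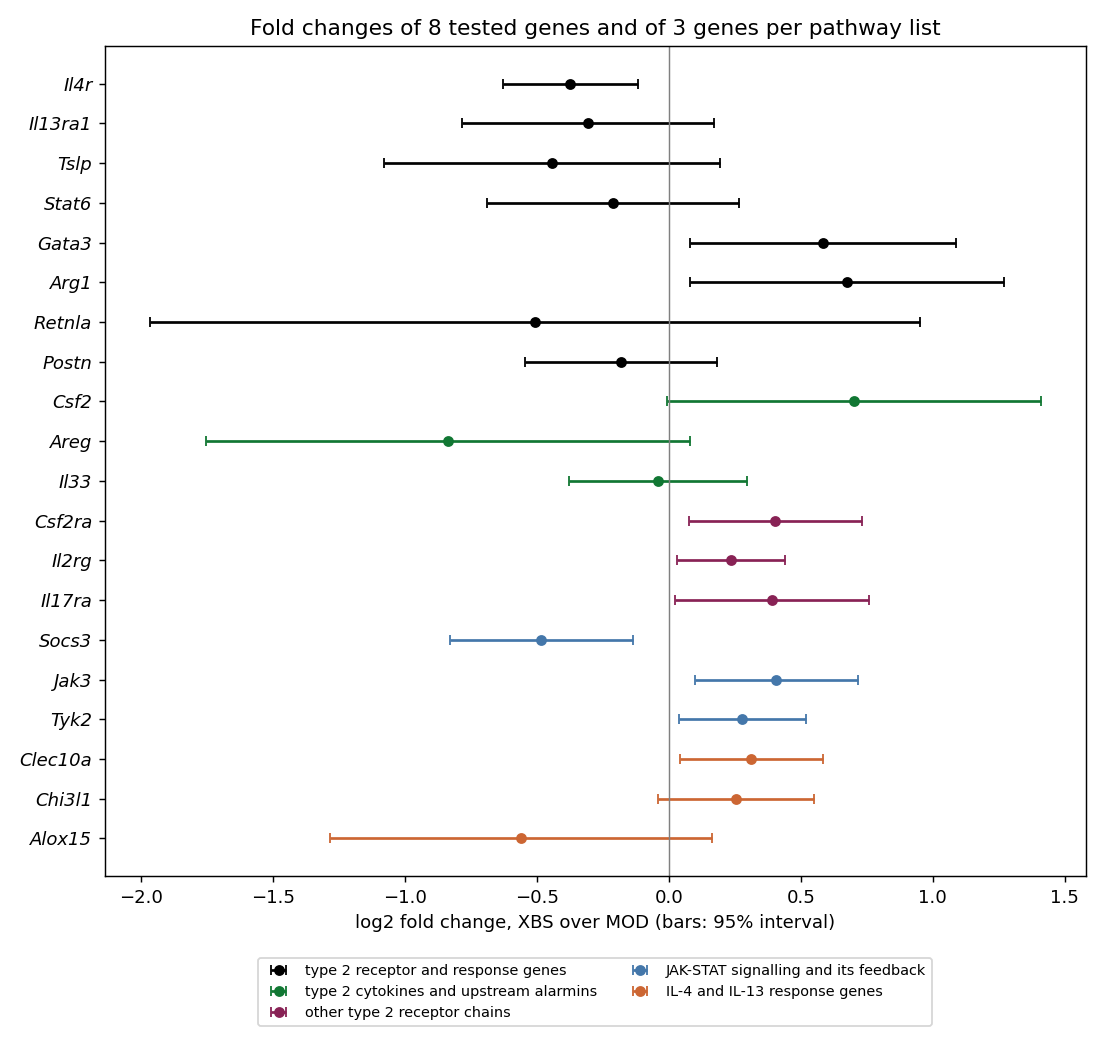
Log2 fold change, XBS over MOD, of the 8 tested genes (black) and of the 3 genes of smallest p in each of 4 pathway lists (colours); bars are 95% intervals from the standard error and 8 residual degrees of freedom. Among the 8, the unadjusted intervals of Il4r, Gata3 and Arg1 leave out 0, and Retnla has the widest (-1.97 to 0.95).

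Arg1 encodes arginase 1, an enzyme that IL-4 and IL-13 induce in macrophages. Arg1 (ENSRNOG00000013304; chromosome 1, 21525421 to 21537863) measured 13.0, 8.22, 8.12, 7.38 and 9.07 CPM in MOD 1 to 5 and 18.3, 12.1, 22.8, 9.93 and 9.90 CPM in XBS 1 to 5. XBS 3 and XBS 1 lay above every MOD library, while the other 3 XBS libraries were above 4 of the 5 MOD libraries but under MOD 1. The means of 9.15 ± 2.22 and 14.6 ± 5.71 CPM (SD, n = 5) gave a log2 fold change of 0.67 ± 0.26 (SE; 95% interval 0.08 to 1.27) with unadjusted p = 0.0239 and adjusted p = 0.316. Without XBS 2 and XBS 3 it was 0.47 (adjusted p = 0.505). Of the macrophage markers 6 of 6 tested had positive fold changes, 1 of them (Mrc1) also a response gene, and the list summed to 553 to 666 CPM in MOD and 618 to 892 in XBS (exact two-sided permutation p = 0.151, adjusted p = 0.302). The highest sums were XBS 3 (892 CPM) and XBS 1 (736 CPM), the libraries highest for Arg1, whereas MOD 1, next after them for Arg1, had the lowest sum (553 CPM). Without Csf1r, which made up 42.3% of the list, XBS 3 (542 CPM) and XBS 1 (462 CPM) were again highest and MOD 1 (340.1 CPM) lay within the range of the rest. Itgax, an integrin of alveolar macrophages and dendritic cells, was 1.58-fold higher (adjusted p = 0.162) and Siglec1, a macrophage lectin, 1.78-fold higher (adjusted p = 0.371); the alveolar macrophage receptor gene Marco had 1 count in MOD and 3 in XBS in total. Their part in the Arg1 difference was not tested.

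Retnla encodes resistin-like alpha, a secreted protein that type 2 cytokines induce in rodent lung epithelium and macrophages. Retnla (ENSRNOG00000001955; chromosome 11, 54543731 to 54545230) stood at 46.4, 24.7, 12.8, 15.8 and 154 CPM in MOD 1 to 5 and at 29.3, 19.1, 41.1, 55.7 and 32.6 CPM in XBS 1 to 5. MOD 5 stood far above all other libraries, and the XBS libraries lay within the MOD range. With means of 50.7 ± 59.0 and 35.6 ± 13.7 CPM (SD, n = 5), the log2 fold change was -0.51 ± 0.63 (SE; 95% interval -1.97 to 0.95; adjusted p = 0.750), yet the MOD median of 24.7 CPM lay below the XBS median of 32.6 CPM. The sign was not stable: the log2 fold change was 0.51 without MOD 5 (adjusted p = 0.617), and with all libraries 0.61 by limma voom with sample weights (adjusted p = 0.585) and 0.0341 with the replicate block in edgeR (adjusted p = 0.985). MOD 5 also had the lowest MOD values of Il4r, Gata3 and Tslp.

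Postn encodes periostin, a matrix protein of fibroblasts that IL-13 induces and that serves as a marker of type 2 asthma. Postn (ENSRNOG00000012660; chromosome 2, 143656793 to 143688087) measured 712, 913, 782, 934 and 735 CPM in MOD 1 to 5 and 450.5, 734, 844, 821 and 744 CPM in XBS 1 to 5. XBS 1 was far below the other 9 libraries, which overlapped. The means were 815 ± 102 and 719 ± 157 CPM (SD, n = 5), a log2 fold change of -0.18 ± 0.16 (SE; 95% interval -0.55 to 0.18; adjusted p = 0.629), and -0.05 without XBS 1 (adjusted p = 0.910). Fibroblast markers summed to 2688 to 5112 CPM in MOD and 3498 to 8569 in XBS (exact two-sided permutation p = 0.651), with the highest sum in XBS 5, where Postn was 744 CPM. Of these markers Pdgfra, a growth factor receptor, was 1.24-fold lower (adjusted p = 0.345) and Col3a1, a collagen, 1.15-fold higher (adjusted p = 0.645). Smooth muscle markers summed to 1167 to 2208 CPM in MOD and 1467 to 3676 in XBS (exact two-sided permutation p = 0.460), with adjusted p = 0.457 for Tagln and 0.573 for Myh11, both contractile genes.

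Of the further IL-4 and IL-13 response genes 13 of 19 tested had positive fold changes (median 0.07), 0 passed by edgeR, and 1 was higher and 0 lower at an unadjusted p under 0.05. Over all tested genes 7.4% were higher and 5.78% lower at that p. Clec10a, a lectin of macrophages and dendritic cells, was 1.24-fold higher (30.9 ± 5.73 against 38.4 ± 2.01 CPM, adjusted p = 0.309). Chi3l1, a chitinase-like secreted protein, was 1.19-fold higher (177 ± 22.6 against 211 ± 36.5 CPM, adjusted p = 0.420), and Alox15, a lipoxygenase, 1.47-fold lower (35.8 ± 17.2 against 24.3 ± 5.84 CPM, adjusted p = 0.452). Clca1, a goblet cell product named after its values were seen, ran from 1.11 CPM in XBS 2 and 1.48 in XBS 3 to 140.5 in XBS 5. It was low as well in MOD 2, MOD 3 and XBS 1 (4.04, 5.93 and 6.99 CPM). Airway cell markers summed to 8909, 12392 and 8053 CPM in MOD 2, MOD 3 and XBS 1. XBS 2 and XBS 3 were also the libraries low in summed airway cell markers, 85.05% of which came from the club cell secretory gene Scgb1a1. Of that list Cyp4b1, an oxidase of club cells, fell 1.58-fold (adjusted p = 0.0104) without following those 2 libraries: it stood at 377 to 405 CPM in MOD and at 273, 258, 225, 272 and 219 CPM in XBS 1 to 5, lowest in XBS 5. The ciliated cell gene Tppp3 was 1.24-fold lower (adjusted p = 0.425). The airway cell sums gave an exact two-sided permutation p = 0.0556, adjusted p = 0.278. Alveolar epithelial sums gave p = 0.381 by the same exact test, with the alveolar type 1 genes Rtkn2 and Ager 1.44-fold and 1.35-fold lower (adjusted p = 0.124 and 0.233).

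**Figure D4:**
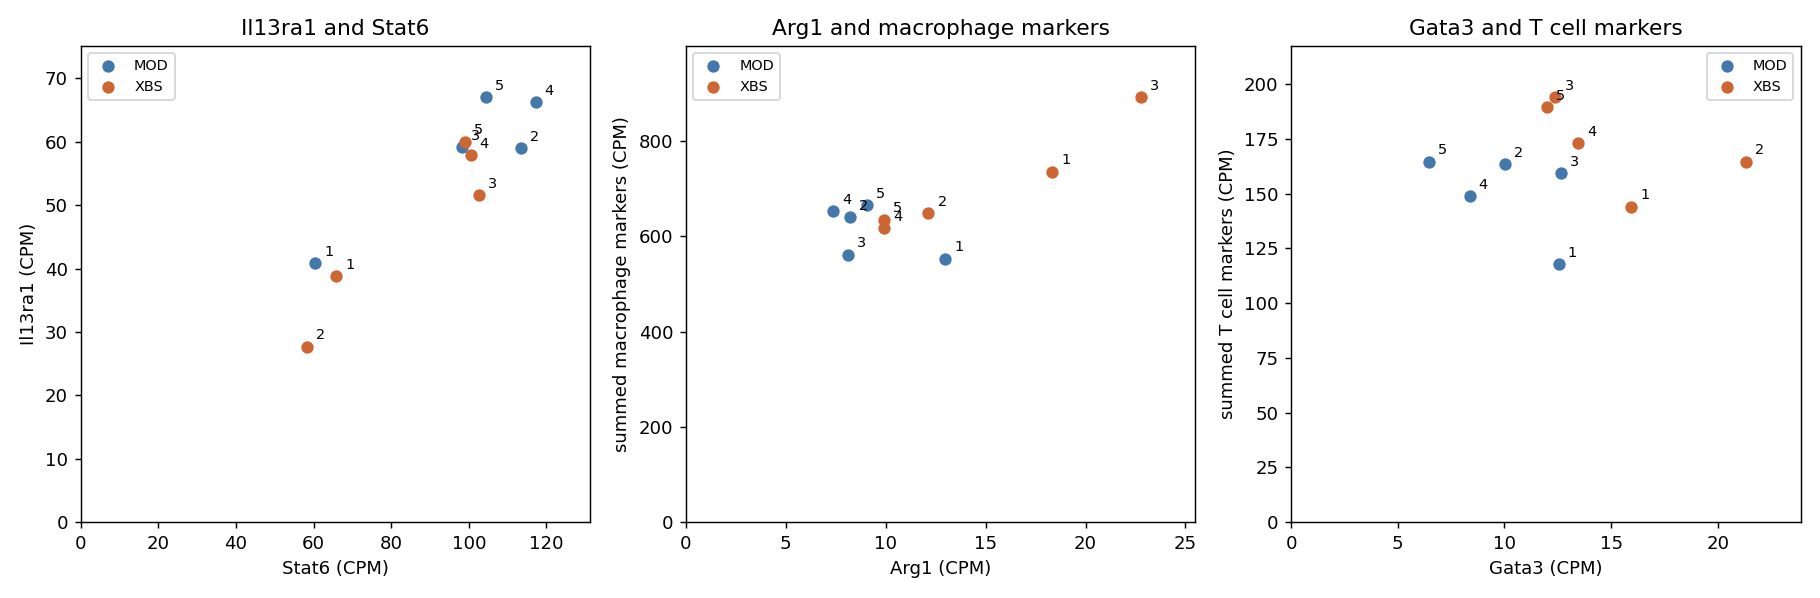
Each point is 1 library, numbered by replicate, MOD in blue and XBS in orange; from left to right, Il13ra1 against Stat6, summed macrophage markers against Arg1, and summed T cell markers against Gata3, all in CPM with axes from 0. MOD 1, XBS 1 and XBS 2 lie apart at the low end of Il13ra1 and Stat6, XBS 3 and XBS 1 are highest for Arg1 and macrophage markers, and XBS 2 is highest for Gata3 at a T cell sum of 165 CPM, of which Cd4 gave 67.1 CPM. Without Cd4 the XBS 2 sum of 97.6 CPM was the highest of the 10, and that of XBS 1, next for Gata3, was the lowest in XBS (66.7 CPM).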

How the data were processed

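Per the labels' protocols, Trizol RNA was purified to messenger RNA, fragmented and made into libraries by adapter ligation and PCR. Per the file headers, each library has 2 columns of values, counts and FPKM. The deposited counts are raw and whole; the FPKM that the authors deposited were recomputed from count, length and column total to within 4.78e-08 (relative). Not given in the sources used here: aligner, counter, strand setting and rat build; the submitters' processing notes name human and mouse builds. Reads of overlapping or antisense genes may therefore be shared. Libraries of a group differed beyond sampling noise (chi-square over its degrees of freedom at least 9.46).

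Counts were filtered by edgeR's filterByExpr (count 10, total 15), keeping 14320 genes with 99.921% of counts, TMM-scaled and fitted in edgeR 4.0.16 in R 4.3.3 (quasi-likelihood, robust), XBS over MOD, Benjamini-Hochberg adjusted over these genes at a threshold of 0.05. Adjusted p-values of genes are from edgeR unless another tool is named, and intervals use the standard error (log2 fold change over the square root of F) with 8 degrees of freedom. CPM uses TMM-adjusted totals. Marker sums were compared by exact two-sided permutation over 252 assignments (smallest possible p 0.00794). The code was tested on simulated data. Alternatives were DESeq2 1.42.0, limma 3.58.1 voom with sample weights, RLE and upper quartile scaling, other filters, the replicate number as a block, and libraries left out singly or in 2 pairs.

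The genes, lists and alternatives were chosen with earlier results of these data known. Named besides the 10 genes are the 3 tested genes of smallest p of each of 4 pathway lists, the 2 of each of 10 marker lists, and markers at 0; others are said to be named after their values were seen. Muc5ac, Chil3, Col1a2, Foxj1 and Pecam1 of the lists were not matched by symbol and not analysed here.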

Additional observations from a re-analysis of the deposited data

Results flagged for a closer look

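Of 40 checks for a library apart from the other 4 of its group (10 genes and 10 marker sums in each group), 4 exceeded Dixon's 95% critical value of 0.71, and chance gives about 1 in 20. Retnla in MOD 5 (154 CPM) stood above the other MOD libraries, with a gap of 0.761 of the group's range. XBS 1 stood low for Il4r (194 CPM, 0.71 of the range) and for Postn (450.5 CPM, 0.719 of the range). The summed fibroblast markers were high in XBS 5 (8569 CPM, 0.738 of the range).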

How the results depend on the processing

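Over 19 alternatives for each of the 8 tested genes, 149 of 152 values kept their direction and stayed short of the threshold, and 0 passed it. The 3 exceptions were reversals of Retnla, from -0.51 to 0.61 by limma voom with sample weights, to 0.0341 with the replicate block and to 0.51 without MOD 5 (-0.76 to 0.51 over single libraries left out). At an unadjusted p under 0.05 the count of these genes was 3 instead of 0. Over all genes 11 passed by edgeR, against 348 by DESeq2 and 67 by limma voom, 1 with the replicate block, 3 without XBS 2 and XBS 3, 0 without MOD 4 and XBS 5 (1340 at an unadjusted p under 0.05) and 4 to 15 with single libraries left out, namely 4 to 7 when XBS 1, XBS 2, XBS 3, MOD 2, MOD 3 or MOD 4 was missing and 10 to 15 for the other 4. The pathway lists gave 0 under every alternative run, and edgeR, DESeq2 and limma voom put 12, 13 and 14 of their 54 tested genes at an unadjusted p under 0.05. Over all 14320 tested genes the same tools put 1888, 2041 and 2533 there. With edgeR the number for the pathway lists was 4 without MOD 3, 6 without MOD 2 or XBS 1, and 7 without XBS 2. It was 8 without MOD 4 or XBS 3, and 12 to 14 without any of the other 4. With the replicate block it was 16, and without XBS 2 and XBS 3 together 3. Over all genes tested in these runs the number was 1375 without MOD 3, 1291 without MOD 2 and 1294 without XBS 1. It was 1545 without XBS 2, 1234 without MOD 4, 1851 without XBS 3, and 1882 to 2709 without any of the other 4. With the replicate block it was 2070, and without XBS 2 and XBS 3 together 1613. Marker sums without each list's most abundant gene, added after seeing the data, gave unadjusted exact two-sided permutation p = 0.0159 for the airway and for the endothelial list (0.0556 and 0.0397 with it) and 0.0952 to 0.833 for the other 8. The replicate numbers were not treated as pairs: deviations of same-numbered libraries correlated at -0.159 to 0.378, above 0.1 in 4 of 5 pairs, and 1 of 5 MOD libraries correlated best with its own number. The causes of these shifts were not tested. Genes under about 10 counts per library, such as Il13ra2, Il5ra and the type 2 cytokines, could not be compared at this depth.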
